A study of Mus musculus with 2 samples.

Results

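The cytosolic ribosomal protein genes were taken as the probe sets with exactly 1 gene symbol in the annotation of the array that begins with Rpl or Rps and a number, or that is Rplp0, Rplp1, Rplp2 or Rpsa. S6 kinase symbols (Rps6k) and symbols of pseudogenes (-ps) were left out. This gave 219 probe sets of 63 genes, out of 28944 probe sets and 19938 genes with a symbol of their own. Of 77 genes listed as coding for proteins of the mouse ribosome, 54 were among them, 33 of the large subunit (Rpl and Rplp) and 21 of the small subunit (Rps and Rpsa). The other 9 symbols were the paralogs Rpl3l, Rpl7l1, Rpl10l, Rpl39l, Rps4l and Rps27l, together with Rpl32l, Rps19bp1 and Rps23rg1. The 23 listed genes without such a probe set, among them Rpl3, Rpl11 and Rps26, were not analysed here.

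The cytosolic ribosome consists of a small subunit, which reads the mRNA, and a large subunit, which joins the amino acids. Each holds ribosomal RNA and a set of proteins that are mostly present in a single copy, so that growing cells such as myoblasts make many different ribosomal proteins in matched amounts. The mRNAs of these proteins begin with a run of pyrimidines (C or U), the terminal oligopyrimidine or TOP tract, through which the mTOR pathway controls their translation. Ribosomal protein genes are also known for their many processed pseudogenes, copies of the mRNA that were inserted elsewhere in the genome.

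RNA levels were compared in primary mouse myoblasts, the precursors of muscle cells, to ask what follows from the loss of the histone H3K4 methyltransferase MLL1 (gene Kmt2a). The study reported that myoblasts without MLL1 proliferated less than control myoblasts. Whether this bears on the values below was not tested. All cells carried MLL1 fl/fl alleles and Rosa-CreER, a Cre recombinase expressed from the Rosa26 locus of every cell and activated by 4-hydroxytamoxifen (4-OHT), and they came from a single myoblast line derived from the hind limbs of mice aged 5 to 6 weeks. The Mll1 cKO culture received 500 nM 4-OHT in 0.01% ethanol for 7 days, against 0.01% ethanol alone for 7 days in the control culture, and both were then kept without either for 3 days according to the labels, or 2 days according to the methods. One Affymetrix MoGene 1.0 ST array was hybridized per culture, 2 arrays in all, so no spread between cultures, standard error or p-value exists for any value below, and the effect of 4-OHT itself and that of the deletion cannot be told apart.

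Values are log2 RMA signals, and differences were taken per probe set with the control signal subtracted, so that a positive value is higher in Mll1 cKO myoblasts and 1 on this scale is 2-fold. Kmt2a had a signal of 9.66 in Mll1 cKO myoblasts and 9.44 in control myoblasts, from a probe set that covers the whole transcript and therefore does not check the deletion, which takes exon 2 by the series' description but exons 3 and 4 by the study's supplement. The 10 myoblast markers, Myod1 and Pax7 among them, had signals of 6.14 to 12.27 in Mll1 cKO cells and 9.43 to 12.15 in control cells, the low value of 6.14 being Myf5. Markers of fibroblasts reached at most 6.43 in Mll1 cKO cells and 6.58 in control cells, and Cd68, at 7.47 in Mll1 cKO cells against 6.08 in control cells, was the only marker of another cell type that differed by more than 2-fold. Whether any of these bears on the ribosomal protein signals was not tested. Fewer cells of a type and less RNA per cell cannot be told apart in such bulk RNA.

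Since the TOP tract is the sequence that ribosomal protein genes share, the bases around their annotated starts were read from RefSeq (GRCm38.p6), in which 51 of the 63 genes were matched. The lines below hold 30 bases each, 10 before the annotated start and 20 from it on, 5′ to 3′ on the gene's strand. Capitals mark the longest unbroken run of C and T letters that begins with C and has at least 5 letters, and a line without capitals has none. Rpl28, Rpl14, Rps6, Rps10 and Rpl38 are shown as genes with a higher signal in Mll1 cKO myoblasts whose start lies in such a run, Rps9 as a gene with a lower signal whose start also does, and Rpl10, Rps12, Rps25, Rpl5 and Rpl4 as genes whose start does not. These examples were picked by direction and do not give the proportions. Of all 13 ribosomal protein genes with a start in such a run, 7 were lower and 6 higher. The lines shown lie at chr7:4792955-4792984 (plus strand, Rpl28), chr9:120571507-120571536 (plus, Rpl14), chr4:86857348-86857377 (minus, Rps6), chr17:27635225-27635254 (minus, Rps10), chr11:114668570-114668599 (plus, Rpl38), chr7:3704031-3704060 (plus, Rps9), chrX:74270806-74270835 (plus, Rpl10), chr10:23787190-23787219 (minus, Rps12), chr9:44407704-44407733 (plus, Rps25), chr5:107900518-107900547 (plus, Rpl5) and chr9:64173377-64173406 (plus, Rpl4).
Rpl28: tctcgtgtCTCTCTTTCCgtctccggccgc
Rpl14: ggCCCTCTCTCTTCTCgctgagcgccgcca
Rps6: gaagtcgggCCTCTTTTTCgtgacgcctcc
Rps10: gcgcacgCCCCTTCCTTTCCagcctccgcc
Rpl38: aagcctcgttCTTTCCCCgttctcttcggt
Rps9: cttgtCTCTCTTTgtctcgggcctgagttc
Rpl10: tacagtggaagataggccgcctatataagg
Rps12: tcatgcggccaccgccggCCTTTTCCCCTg
Rps25: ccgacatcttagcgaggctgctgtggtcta
Rpl5: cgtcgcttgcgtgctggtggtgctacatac
Rpl4: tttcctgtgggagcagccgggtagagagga

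No ribosomal protein probe set differed by more than 2-fold between Mll1 cKO and control myoblasts. Over all 28944 probe sets, 1.15% were higher and 0.1% lower by that measure. At 1.5-fold the count was again 0 of 219 in both directions, where 4.55% of all probe sets were higher and 2.2% lower. Past a log2 difference of 0.32, a ratio of 5 to 4, 5 ribosomal protein probe sets were higher, against 11.9% of all probe sets, and 6 were lower, against 15.7% of all probe sets. The differences of the 219 probe sets ran from -0.47 to 0.35 with a standard deviation of 0.15, while those of all probe sets had a standard deviation of 0.34. Among other probe sets with a mean signal over 10, where 185 of the 219 lie, the standard deviation was 0.26, and among those over 12 it was 0.12, against 0.13 for the 46 ribosomal protein probe sets over 12.

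**Figure D1:**
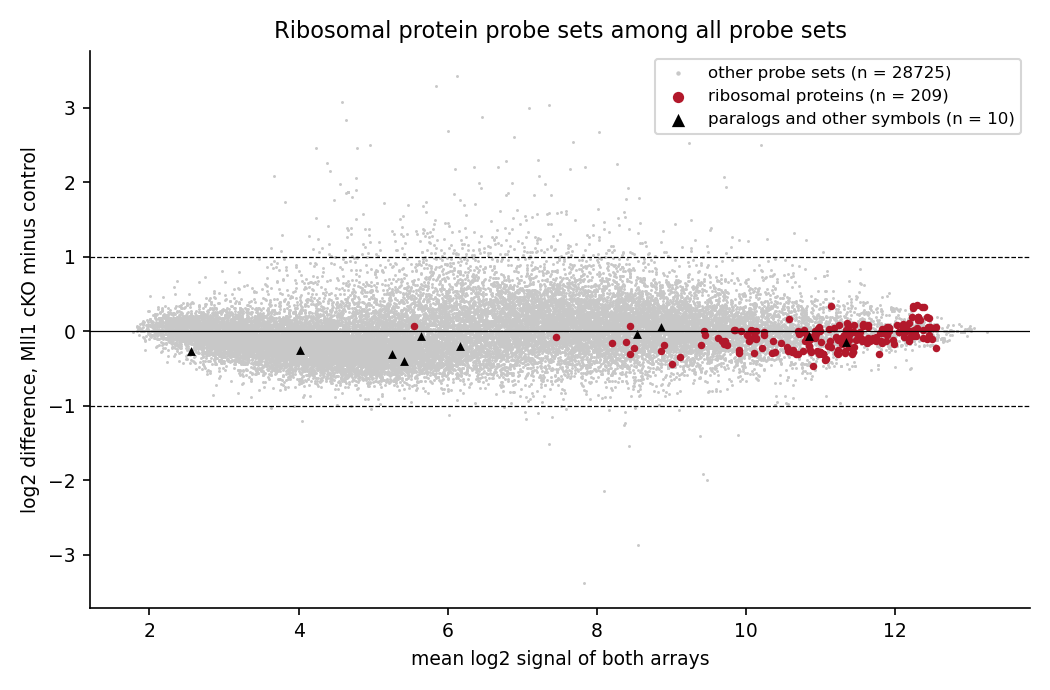
Difference of each probe set (log2 signal in Mll1 cKO minus control) against its mean log2 signal over both arrays. Red points are the 209 probe sets of the 54 ribosomal protein genes, black triangles the 10 of paralogs and other symbols, grey points all other probe sets; dashed lines mark 2-fold. All ribosomal protein probe sets lie between -0.47 and 0.35, most of them at a mean signal over 10.

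Within this narrow range, most ribosomal protein genes had a slightly lower signal in Mll1 cKO myoblasts. Taking each gene as the mean of its probe sets, 51 of 63 were lower and 12 higher, with a median difference of -0.090. Over all 19938 named genes 55.6% were lower and 41.6% higher, with a median of -0.049. Bright genes as a whole leaned the other way. Of all named genes with a mean signal over 10, 44.4% were lower and 55.5% higher. Without the ribosomal proteins, of the 1324 other named genes with a mean signal over 10, 572 were lower and 750 higher, with a median of 0.031. Of the 44 ribosomal protein genes with a mean signal over 10, 35 were lower and 9 higher, with a median of -0.077. The 1324 other genes were less bright, with a median control signal of 10.6 against 11.4 for these 44. How many ribosomal protein genes were lower depended in part on the zero point. Centring on the median of probe sets with a mean signal over 10, which was -0.00077, left 50 of the 63 lower and 13 higher. Removing the trend of the difference on signal by lowess gave 50 lower and 13 higher as well. When the difference was centred on the median of all probe sets, which was -0.058, 41 of the 63 genes were lower and 22 higher, and their median was -0.031. Under the same centring the other genes with a mean signal over 10 had a median of 0.090 and the ribosomal protein genes with a mean signal over 10 one of -0.018. Of the 10 ribosomal protein genes with a mean signal over 12, 7 were lower and 3 higher, with a median of -0.031. Counted as probe sets, 19 of the 46 with a mean signal over 12 were lower and 27 higher, but the 27 belonged to only 7 genes, mostly Rps6, Rpl10, Rpl28 and Rpl21. Of the 291 other probe sets with a mean signal over 12, 129 were lower and 162 higher. By this count of probe sets that are not independent, the brightest ones did not lean lower than others of a like signal. Counted as genes, 7 of 10 were lower.

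**Figure D2:**
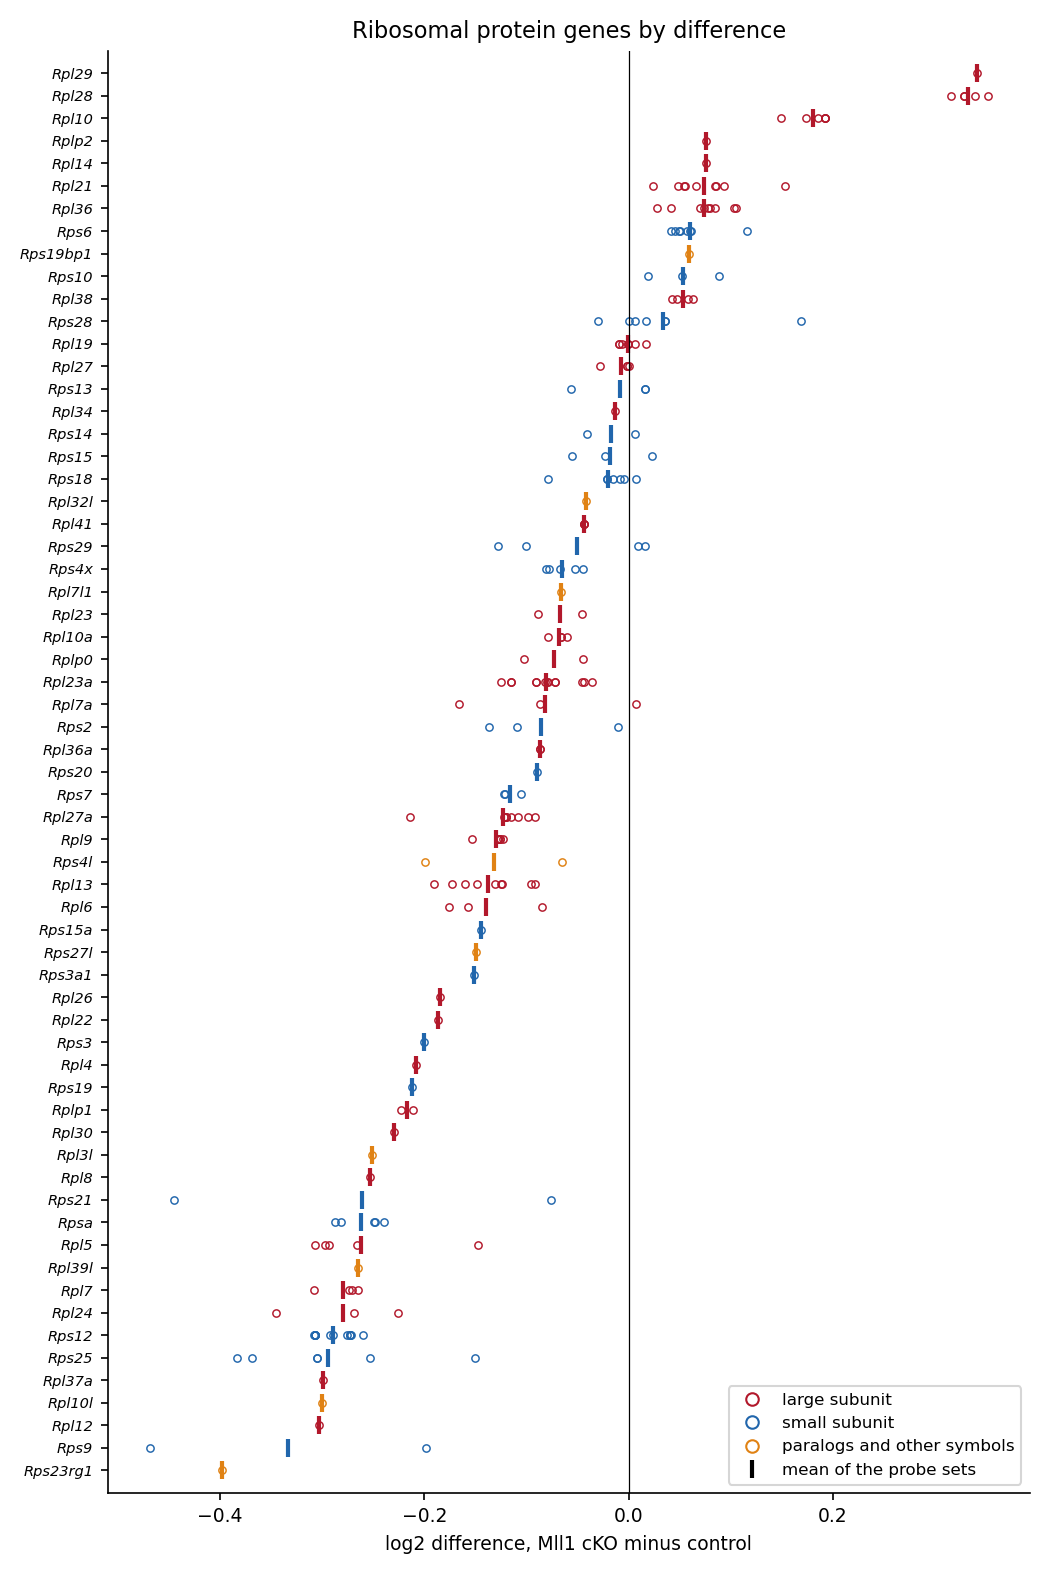
Log2 difference (Mll1 cKO minus control) of the 63 genes, ordered by the mean of their probe sets, with circles for single probe sets and bars for the mean, coloured by subunit. The 51 genes left of 0 form a continuous gradient down to Rps23rg1, and Rpl29 and Rpl28 stand apart at the top.

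The probe sets of a gene gave the only repeated readings, of the same 2 RNA samples. Of the 39 genes with several probe sets, 23 had all of them lower, 7 all of them higher and 9 had them in both directions or at 0. The median range of the difference within a gene was 0.073, while the signals of the same probe sets spanned a median of 0.50. Of the variance in difference among these 195 probe sets, 92.6% lay between genes, with a standard deviation of 0.045 within a gene and of 0.14 between gene means. Probe sets of 1 symbol are not independent, because some share probes: the 219 probe sets held 206 distinct pairs of values, and without repeated pairs the share between genes was 91.9%. Leaving out repeated pairs does not remove all of this dependence. Rpl9 probe sets with control signals of 11.62, 11.95 and 11.89 all had a difference of -0.12811. The share between genes therefore does not measure how well independent readings match. Signals of copies that are nearly identical in sequence cannot be assigned to one of them. The widest range was that of Rps21, a small subunit protein found in eukaryotes, with differences of -0.45 and -0.076 in its 2 probe sets, followed by Rps9, Rps25, Rps28 and Rpl7a.

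Of the large subunit genes, 25 of 33 were lower and 8 higher, with a median difference of -0.082. Rpl29, a small eukaryotic protein also known for binding heparin, had the highest mean difference, with a signal of 11.32 in Mll1 cKO myoblasts and 10.98 in control myoblasts (0.34) in its single probe set. Rpl28, another protein particular to eukaryotes, averaged 12.47 in Mll1 cKO cells and 12.14 in control cells (0.33). Its 5 probe sets spanned only 0.32 to 0.35 in difference, and in each of them the Mll1 cKO signal was the higher one, with 12.40 to 12.56 in Mll1 cKO cells and 12.08 to 12.23 in control cells. Rpl29 and Rpl28 were the only ribosomal protein genes higher by more than 0.32, where 13.3% of all named genes were.

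Rpl10 joins the large subunit last, in the cytoplasm, and lies close to the catalytic centre. It averaged 12.43 in Mll1 cKO cells and 12.25 in control cells, and its 6 probe sets, of which 5 had distinct values, had differences of 0.15 to 0.19. All other higher genes had mean differences below 0.08. Rpl21 was higher in all 9 of its probe sets, by 0.024 to 0.15, and Rpl36 in all 9 of its own, by 0.028 to 0.11. Rpl14 had 8.48 in Mll1 cKO cells and 8.41 in control cells. Rpl38, whose loss alters the axial skeleton of the mouse, averaged 11.87 in Mll1 cKO cells and 11.82 in control cells, with all 4 probe sets higher. Centring on the median of all probe sets, which was -0.058, raises every difference, so it could not make these genes lower and is no check of their direction. Quantile normalization of the deposited values changed the sign of Rpl14 alone among them, to -0.00076.

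The lower large subunit genes included several with a difference of similar size in every probe set. Rpl7 averaged 10.57 in Mll1 cKO cells and 10.85 in control cells (-0.28), and its 4 probe sets ranged from -0.31 to -0.27. Rpl24, a protein at the interface with the small subunit that is mutated in the Belly spot and tail mouse, averaged 9.26 in Mll1 cKO cells and 9.54 in control cells (-0.28), with 3 probe sets from -0.35 to -0.23. Rpl37a had 11.64 in Mll1 cKO cells and 11.94 in control cells (-0.30) in a single probe set. Rpl8, which lies near the catalytic centre, had 10.74 in Mll1 cKO cells and 10.99 in control cells (-0.25). Rpl30 had 8.39 in Mll1 cKO cells and 8.62 in control cells (-0.23). Smaller differences, lower in every probe set, were seen for Rpl9, whose 8 probe sets ranged only from -0.15 to -0.12, for Rpl27a, whose 9 ranged from -0.21 to -0.091, and for Rpl13, whose 9 ranged from -0.19 to -0.092. Rpl41 had the same pair of values in all 3 of its probe sets, 12.24 in Mll1 cKO cells and 12.29 in control cells.

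Proteins with a known place on the large subunit did not all go one way. The P stalk is the flexible arm that recruits translation factors. Its base, Rpl12, had the lowest difference of all large subunit genes, with 8.30 in Mll1 cKO cells and 8.60 in control cells (-0.30). Of the acidic proteins on the stalk, Rplp1 averaged 11.89 in Mll1 cKO cells and 12.11 in control cells (-0.22), while Rplp0 averaged 12.45 in Mll1 cKO cells and 12.52 in control cells (-0.073). Rplp2 was slightly higher, with 5.59 in Mll1 cKO cells and 5.52 in control cells. This value comes from the only probe set that carries the symbol alone, a dim one, and became 0.22 with the trend on signal removed.

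Rpl5, which carries the 5S ribosomal RNA into the large subunit together with Rpl11 and can bind Mdm2, averaged 11.13 in Mll1 cKO cells and 11.40 in control cells (-0.26), with all 5 probe sets lower, from -0.31 to -0.15. Around the exit tunnel, through which the nascent chain leaves, 5 of 9 listed genes were measured and all 5 were lower, with a median of -0.18. The lowest was Rpl4, which lines the tunnel, with 11.03 in Mll1 cKO cells and 11.24 in control cells (-0.21). Rpl19 was the highest of them, with 12.10 in Mll1 cKO cells and 12.11 in control cells (-0.00071), and its 7 probe sets lay on both sides of 0. Rpl23a, at the rim of the tunnel, was lower in all 13 of its probe sets, by a mean difference of -0.080. When centred on the median of all probe sets, Rpl19 became higher and the other 4 remained lower.

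Of the small subunit genes, 18 of 21 were lower and 3 higher, with a median difference of -0.090. Rps9, a protein at the entry of the mRNA channel, had the lowest mean, with 10.71 in Mll1 cKO cells and 11.04 in control cells (-0.33). Its 2 probe sets were both lower but differed from each other, at -0.47 and -0.20. Rps9 and Rps23rg1 were the only genes lower by more than 0.32, where 15.5% of all named genes were. Rpsa, which is also known as the laminin receptor, averaged 10.40 in Mll1 cKO cells and 10.66 in control cells (-0.26), with 5 probe sets from -0.29 to -0.24. Rps2 and Rps7 were lower in all 3 of their probe sets each, by mean differences of -0.085 and -0.12.

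In the head of the small subunit, 10 of 14 listed genes were measured, of which 8 were lower and 2 higher, with a median of -0.070. The lowest was Rps25, a eukaryotic protein that some viral mRNAs need for initiation, with a mean of 10.82 in Mll1 cKO cells and 11.11 in control cells (-0.29) and all 6 probe sets lower. Rps12 was close to it, with a mean of 10.67 in Mll1 cKO cells and 10.96 in control cells. Rps12 had the largest number of probe sets of any ribosomal protein gene, 14 with 8 distinct pairs of values, and their differences stayed between -0.31 and -0.26. Rps3, at the mRNA entry, had 11.00 in Mll1 cKO cells and 11.20 in control cells (-0.20). Rps10 was the highest of the head, with 11.48 in Mll1 cKO cells and 11.43 in control cells, and Rps28 averaged 10.90 in Mll1 cKO cells and 10.86 in control cells with probe sets on both sides of 0. When centred on the median of all probe sets, 5 of these 10 genes were lower and 5 higher.

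Rps6, the substrate of the S6 kinases, was the highest of the small subunit genes. It averaged 12.49 in Mll1 cKO cells and 12.43 in control cells (0.060), and all 8 of its probe sets were higher, by 0.042 to 0.12.

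**Figure D3:**
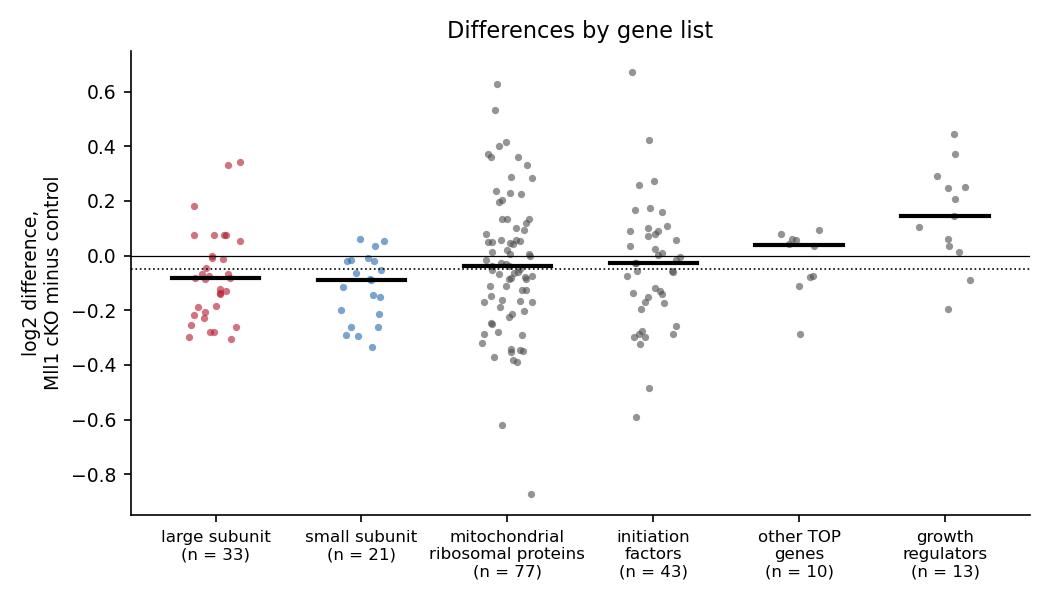
Log2 difference (Mll1 cKO minus control) of each gene in 6 lists, with a thick bar at the median of the list and a dotted line at the median of all named genes (-0.049). Ribosomal proteins of both subunits lie below 0 for the most part, with medians of -0.082 and -0.090, while most growth regulators, a list of activators and inhibitors alike, lie above it.

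Genes that are mutated in the human red cell disease Diamond-Blackfan anaemia include Rpl5, Rps7, Rps10 and Rps19 among those measured here, 4 of 9 listed. Of these 3 were lower and 1 higher, and Rps19, the gene most often affected, had 10.45 in Mll1 cKO cells and 10.66 in control cells (-0.21). Ribosomal protein genes that often serve as reference genes in RT-qPCR were close to 0. Of 7 listed, 5 were measured, and their differences ranged from -0.073 for Rplp0 to -0.00071 for Rpl19, with a median of -0.020. All 5 were below 0 as deposited, but 4 of the 5 were above 0 when centred on the median of all probe sets. Of the X-linked genes, Rpl10 was the one with a higher signal, while Rps4x averaged 11.43 in Mll1 cKO cells and 11.50 in control cells, and Rpl36a averaged 11.41 in Mll1 cKO cells and 11.50 in control cells.

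Some ribosomal proteins have a paralog that replaces them in certain tissues. The 6 paralogs measured were all lower, with a median difference of -0.20. Dim probe sets as a whole were lower on the Mll1 cKO array, with a median difference of -0.11 over the 18037 with a mean signal below 7, and with the trend of the difference on signal removed by lowess the 6 paralogs were still lower but their median was -0.10. Of the paralogs, 4 had a signal below 7 in both arrays, the limit below which the study's methods did not list a gene as lower. Rpl3l, which takes the place of Rpl3 in differentiated skeletal and cardiac muscle, had 3.89 in Mll1 cKO myoblasts and 4.14 in control myoblasts. Rpl39l, known from the testis, had the lowest signals of all, 2.43 in Mll1 cKO cells and 2.69 in control cells. Rpl10l, which stands in for the X-linked Rpl10 during meiosis in male mice, had 5.10 in Mll1 cKO cells and 5.40 in control cells (-0.30), whereas its parent Rpl10 was higher in Mll1 cKO cells. Rps4l averaged 5.84 in Mll1 cKO cells and 5.97 in control cells, and its parent Rps4x differed by -0.065.

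Only Rpl7l1 and Rps27l of the paralogs had signals over 7. Rpl7l1, which belongs to precursors of the large subunit, had 10.82 in Mll1 cKO cells and 10.88 in control cells (-0.067), against a difference of -0.28 for its parent Rpl7. Rps27l, a p53 target in human cells, had 11.27 in Mll1 cKO cells and 11.41 in control cells (-0.15). Among parents whose own paralog had no probe set here, Rpl22 had 8.81 in Mll1 cKO cells and 8.998 in control cells, and Rps3a1 had 8.13 in Mll1 cKO cells and 8.28 in control cells. The other symbols included Rps23rg1, a retroposed copy of Rps23 in the mouse, which had the lowest difference of all 63 genes as deposited (-0.40) at signals of 5.22 in Mll1 cKO cells and 5.62 in control cells. With the trend on signal removed it was -0.24, no longer beyond 0.32, and Rpl12 was the lowest gene, at -0.35. Rps19bp1, a nucleolar binding partner of Rps19 and not a part of the ribosome, had 8.89 in Mll1 cKO cells and 8.84 in control cells. Rpl32l had 8.52 in Mll1 cKO cells and 8.56 in control cells.

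**Figure D4:**
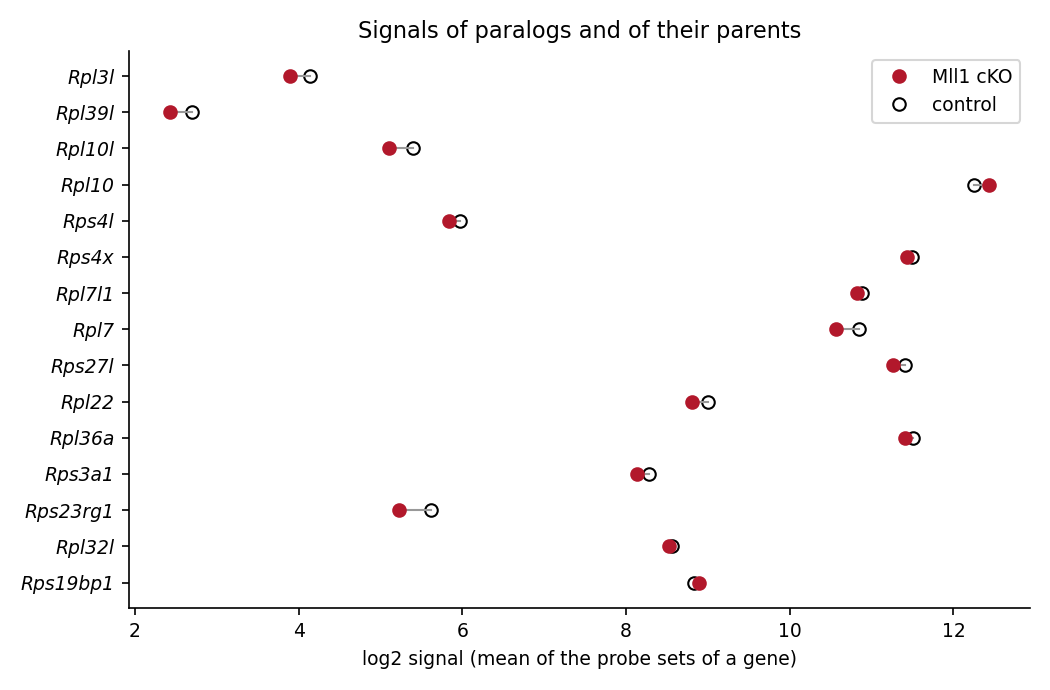
Log2 signals in Mll1 cKO (filled) and control (open) of the paralogs, of the parents that were measured and of the 3 other symbols. Pairs of points lie at most 0.40 apart throughout, and the control point lies on the right in every pair but those of Rpl10 and Rps19bp1.

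The annotated start lay inside a run of at least 5 C and T letters that begins with C in 13 of 50 starts of the ribosomal protein genes (26%), as in the lines for Rpl28 and Rps6 above. The share was 7.12% over all protein coding genes in the same table, 8.02% over all 32851 starts, and 3 of 74 starts (4.05%) for mitochondrial ribosomal proteins. An annotated start may lie some bases from the one used in these cells, and in the line for Rps12 a run of 11 letters begins downstream of it. The 13 genes with a start in such a run comprised 7 that were lower and 6 that were higher, with a median difference of -0.013. The 30 matched genes without one comprised 28 that were lower and 2 that were higher, with a median of -0.13. Some of the lower genes lay near 0 and became higher when centred on the median of all probe sets. These were Rpl34 and Rps18 among the genes with such a start. Among those without one they were Rpl19, Rpl27, Rps13, Rps15 and Rpl41, with deposited differences of -0.044 to -0.00071. This split was made with the differences known and is a description of these 43 genes, and the genes without a match, to which Rpl29, Rpl21 and Rpl36 belong, are not in it. Both sets had similar signals, with a median of 10.9 for genes with such a start and 11.1 for those without. The ranges overlapped, from -0.33 for Rps9 to 0.33 for Rpl28 among genes with such a start and from -0.30 for Rpl12 to 0.18 for Rpl10 among those without.

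**Figure D5:**
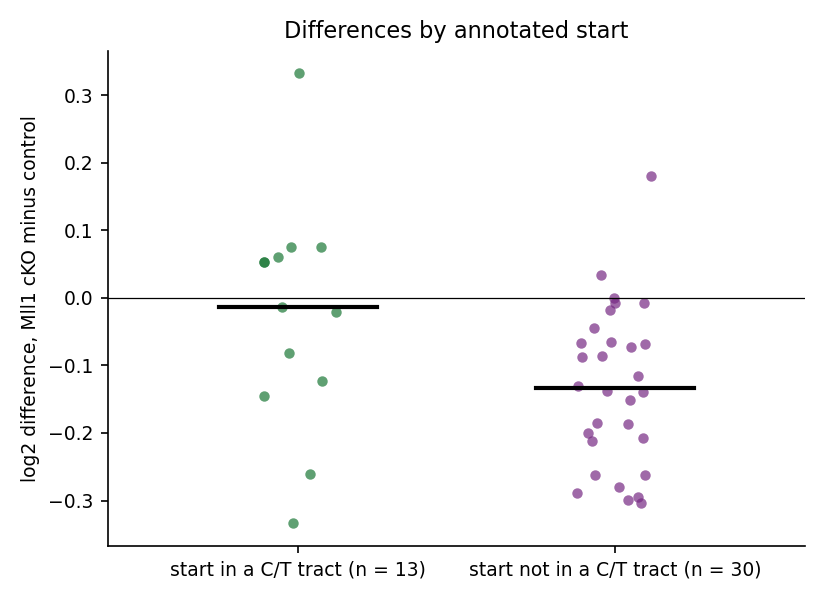
Log2 difference (Mll1 cKO minus control) of 43 ribosomal protein genes, 13 whose RefSeq start lies in a run of C and T letters and 30 whose start does not, with bars at the medians of -0.013 and -0.13. The ranges of the 2 sets overlap, and most points of the second lie below 0.

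Many ribosomal protein genes carry small nucleolar RNAs, which guide the modification of ribosomal RNA, in their introns. By RefSeq spans, 20 of the genes held 39 of them, and 12 of these were measured, in 14 probe sets from 10 hosts. Of the 14 probe sets, 8 were lower and 6 higher, and 8 had the sign of their host. Snora52 lies in Rplp2, and its signals of 11.34 in Mll1 cKO cells and 11.62 in control cells (-0.27) had the opposite sign to its host, whose own reading is dim, below 7 in both arrays. Snord42a had 6.34 in Mll1 cKO cells and 5.80 in control cells (0.53), and Snord42b had 8.23 in Mll1 cKO cells and 7.79 in control cells (0.44), while their host Rpl23a was lower in every probe set. Snord16a, in Rpl4, was lower like its host, with 9.61 in Mll1 cKO cells and 9.99 in control cells (-0.38).

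The 77 mitochondrial ribosomal protein genes, the most similar gene group, had a standard deviation of 0.25 over genes, against 0.15 for the 63 genes above, at a lower median signal of 8.59, against 10.87. Elongation factors, with 0.093, and other TOP genes, with 0.12, had narrower spreads. Of the 77 mitochondrial ribosomal protein genes, 44 were lower and 33 higher, with a median of -0.039, which became 0.020 when centred on the median of all probe sets. Mrps28 had the largest difference, with 6.53 in Mll1 cKO cells and 7.40 in control cells (-0.87). Of 43 initiation factor genes, 25 were lower and 18 higher, with a median of -0.028, and Eif2b2 had the largest difference, with 9.56 in Mll1 cKO cells and 8.88 in control cells (0.67). Of 6 elongation factor genes 4 were lower and 2 higher, with Eef1a2 the farthest from 0, at 5.72 in Mll1 cKO cells and 5.94 in control cells.

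Other genes whose mRNAs begin with a TOP tract were balanced, 6 higher and 4 lower of 10 measured, with a median of 0.040. Eif3e, a subunit of initiation factor 3, differed most, with 9.87 in Mll1 cKO cells and 10.16 in control cells (-0.29). Genes that regulate ribosome production leaned towards higher signals, with 11 of 13 higher, Rps6 included, and a median of 0.14. This list mixes activators and inhibitors, so its lean does not stand for more or less ribosome production. The inhibitors Tsc1 (0.21), Tsc2 (0.25), Eif4ebp1 (0.14) and Eif4ebp2 (0.25) were higher. Of the activators, the S6 kinase Rps6kb2 (0.37), Rptor (0.29), Mtor (0.11) and Myc (0.037) were higher, and Rheb (-0.19) and the dim Mycn (-0.089) were lower. The largest difference of the list was that of Mdm2, the ubiquitin ligase of p53 that free ribosomal proteins can inhibit, with 10.71 in Mll1 cKO cells and 10.26 in control cells (0.44). Of the 4 chaperones that escort single ribosomal proteins, 3 were lower and 1 higher, and the largest difference was that of Pdcd2, which binds Rps2, with 8.57 in Mll1 cKO cells and 8.24 in control cells (0.33). No member of these lists differed by more than 2-fold. A further 239 probe sets name a ribosomal protein together with other symbols and belong to no gene above, and of these 149 were lower and 89 higher, with a median of -0.038.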

How the data were processed

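RNA of both cultures was hybridized to Affymetrix MoGene 1.0 ST arrays. The authors applied RMA (background correction, quantile normalization and a summary per probe set) in Bioconductor, version not given in the sources used here, and deposited log2 signals of 35557 probe sets for 2 arrays. Quantile normalization gives both arrays nearly the same distribution, so a shift common to all genes cannot be seen.

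From these values, differences, counts and medians were computed (Python 3.11.15, numpy 2.4.6, pandas 2.3.3, statsmodels 0.14.6), after a check on simulated data. The lowest probe set numbers, which form a run of 6613 without gaps, were taken as control probe sets. Of that run, 4416 were higher and 2179 lower in Mll1 cKO cells, with a median difference of 0.19. Whether this difference between the arrays bears on the ribosomal protein signals was not tested. The control probe sets were left out, which gave 28944 probe sets. Of these, 21789 had 1 symbol, 1621 several and 5534 none. Only those with 1 symbol were named, with symbols updated to RefSeq by gene number. A gene is the mean of its probe sets. With 1 array per group no test could be made, and precision is limited by the number of arrays.

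Genes named are the 12 probe sets highest and lowest in difference with a signal over 7, paralogs and their parents, the highest and lowest of each structural group, the 5 widest ranges, and the member farthest from 0 of other lists. Further members were named after their values were seen, and the members and lists were chosen with earlier results of these data known. Alternatives were other fold cut-offs, a filter on dim probe sets, the brightest probe set of a gene, the mean, centring, removal of a lowess trend (span 0.3) and quantile normalization. Protein sequences were not analysed here.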

Additional observations from a re-analysis of the deposited data

How the results depend on the processing

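No ribosomal protein probe set passed 2-fold under any centring, trend removal, normalization, filter or choice of probe set tried, nor at 1.5-fold, and past a log2 difference of 0.32, 5 were higher and 6 lower. With deposited differences of -0.47 to 0.35, these alternatives could hardly have carried any past 2-fold, so the unchanged count is no check. Centring on the median of all probe sets gave 22 genes higher in place of 12 and brought the median to -0.031 in place of -0.090, that of the large subunit to -0.024 and that of the small subunit to -0.031. The same centring turned the median of the mitochondrial ribosomal proteins to 0.020, and quantile normalization of the deposited values gave -0.11 for them. The other alternatives, among them centring on probe sets with a mean signal over 10, gave medians of the ribosomal proteins between -0.12 and -0.085. Centring on probe sets with a mean signal over 10 left 50 genes lower and 13 higher. Of the 63 genes, 10 near 0 became higher under the centring on all probe sets, Rpl19 (0.058), Rpl27 (0.051), Rps13 (0.050), Rpl34 (0.045), Rps14 (0.041), Rps15 (0.040), Rps18 (0.038), Rpl32l (0.016), Rpl41 (0.014) and Rps29 (0.0076). Removal of the lowess trend changed the sign of Rpl19 alone (0.0050), and it shifted 7 other genes, dim ones above all: Rpl3l to -0.085, Rpl10l to -0.12, Rps4l to -0.037, Rps23rg1 to -0.24, Rplp2 to 0.22, Rps3a1 to -0.20 and Rps15a to -0.19. Quantile normalization changed the sign of Rpl14 alone (-0.00076). No paired analysis was possible because each group has 1 array, and for the same reason no array could be left out. Differences as small as these would have to be read against differences between cultures, which 1 array per group does not measure.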
